A study of Homo sapiens with 267 samples.

Results

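Expression of 9 cancer-testis genes was examined in single-cell and bulk libraries of K562, a human chronic myelogenous leukaemia line. They are PRAME, MAGEA1, MAGEA3, MAGEA6, MAGEA12, MAGEB2, PAGE1, PAGE5 and SSX1. Each was found by matching its symbol to the Ensembl identifiers of the count table, which gave 9 of 63677 genes. The study captured fresh cells and cells fixed with DSP, a reversible cross-linker, on a microfluidic chip (Fluidigm C1), made full-length cDNA and sequenced 1 library per capture site or bulk. The labels do not tell fresh, fixed, bulk and empty sites apart, so every level below is over a mixture of them.

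The libraries fell into 5 groups by run and label. All 96 samples of the Hoechst run were untreated cells, with passages given as 90 to 92 (the label adds the unit hours, read here as passage numbers), stained with 2 µM Hoechst 33342 and 3.75 µM propidium iodide for 20 min. The benzene run held 38 samples of untreated cells in CellTracker Green CMFDA and 37 in CellTracker Orange CMRA that had received 10 mM benzene for 3 h. The imatinib run held 51 untreated Green samples and 45 Orange samples given 1 µM imatinib, an inhibitor of the BCR-ABL1 kinase, for 1 h. Both CellTracker dyes were used at 1 µM for 30 min together with LIVE/DEAD Fixable Red, on cells labelled in the same way with 20 to 22, and the labels give no other treatment or genotype. Stain and drug always went together within a run, so the effect of one cannot be told apart from that of the other. Nothing in the labels names separate cultures, so each group counted as 1 sample, with libraries of that sample as its cells.

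Counts were found for 263 of the 267 samples. A library was kept when at most 70% of its reads lay in its 500 highest genes, which left 242: 82 of the Hoechst run, 31 Green and 34 Orange of the benzene run, and 50 Green and 45 Orange of the imatinib run. Kept libraries held 50358 to 2043351 reads in genes. All 11 markers of K562 (globins, GATA1 and others) were at 5 counts per 1000000 reads (CPM) or more in every group, both keratinocyte markers were at 0, and the B-cell, fibroblast and hepatocyte lists each summed to 22 CPM or less. The T-cell list, mainly CD3D, summed to 144 CPM in the Hoechst run and to 11.7 to 43 CPM in the other groups. Of 8 germ-cell markers, 6 were at 0 in the Hoechst run and 7 in each other group. SYCP3, a protein of the meiotic chromosome axis, was the main exception, at 21.6 CPM in the Hoechst run, 0.374 in the benzene run and 9.38 in the imatinib run.

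Cancer-testis genes are active in male germ cells, silent in most other adult tissues, and often switched on again in tumours, where loss of promoter DNA methylation is the best known route. Their proteins can be recognised by T cells, which has made them targets for immunotherapy. PRAME is a leucine-rich repeat protein that serves as a substrate receptor of a Cullin-2 ubiquitin ligase and can repress retinoic acid receptor signalling. MAGE proteins bind RING-type ubiquitin ligases, PAGE proteins are small relatives of the GAGE antigens, and SSX1 is a transcriptional repressor known from the SS18-SSX fusions of synovial sarcoma.

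PRAME lies on GRCh37 chromosome 22 at chr22:22890123-22901768 (minus strand) and the other 8 genes lie on chromosome X. MAGEA3 (chrX:151934652-151938240, minus), MAGEA12 (chrX:151899293-151903206, minus) and MAGEA6 (chrX:151867214-151870825, plus), lie close together near the end of the long arm, in the same region as MAGEA1 (chrX:152481520-152486116, minus). MAGEA3 and MAGEA6 are near copies. Their coding sequences of 942 bases differ at 18 positions (98.1% identical), against 74 positions between MAGEA3 and MAGEA12. The stretch below is the 75-base coding window, bases 558 to 632 of the coding sequence in GRCh37, in which MAGEA3 and MAGEA6 differ most. It is shown because it marks what a read has to carry to be assigned to 1 of the 3 genes, and capitals mark positions at which any of them differ.
MAGEA3 (chrX:151935535-151935609, minus strand): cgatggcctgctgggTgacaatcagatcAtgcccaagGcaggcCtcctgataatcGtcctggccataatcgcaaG
MAGEA6 (chrX:151869868-151869942, plus strand): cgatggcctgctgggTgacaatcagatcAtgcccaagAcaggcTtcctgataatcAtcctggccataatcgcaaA
MAGEA12 (chrX:151900169-151900243, minus strand): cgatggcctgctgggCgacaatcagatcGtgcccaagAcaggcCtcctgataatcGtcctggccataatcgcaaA
Even here MAGEA3 and MAGEA6 differ at only 4 of 75 bases, and 261 of the 868 windows of this length along the coding sequence are identical in both, the longest identical stretch being 308 bases.

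The authors counted only reads with 1 place in the genome, so every exon stretch of read length was looked up in GRCh37. At 75 bases, the read length of the CellTracker runs, 47.2% of MAGEA3 stretches and 53.9% of MAGEA6 stretches occurred once. MAGEA6 held a copy of 52.7% of the MAGEA3 stretches. The 100-base reads of the Hoechst run raised the unique share to 54.4% for MAGEA3 and 63.1% for MAGEA6. Counts of this pair are therefore uncertain and rest on the unshared part of each gene. Of the other members, PAGE5 (94%), MAGEA12 (98.6%) and SSX1 (99.7%) had a few repeated 75-base stretches, and PRAME, MAGEA1, MAGEB2 and PAGE1 had none. The check covered exact matches of stretches inside an exon. It left out reads across exon junctions and near matches, and did not use the mate of a read pair.

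**Figure D1:**
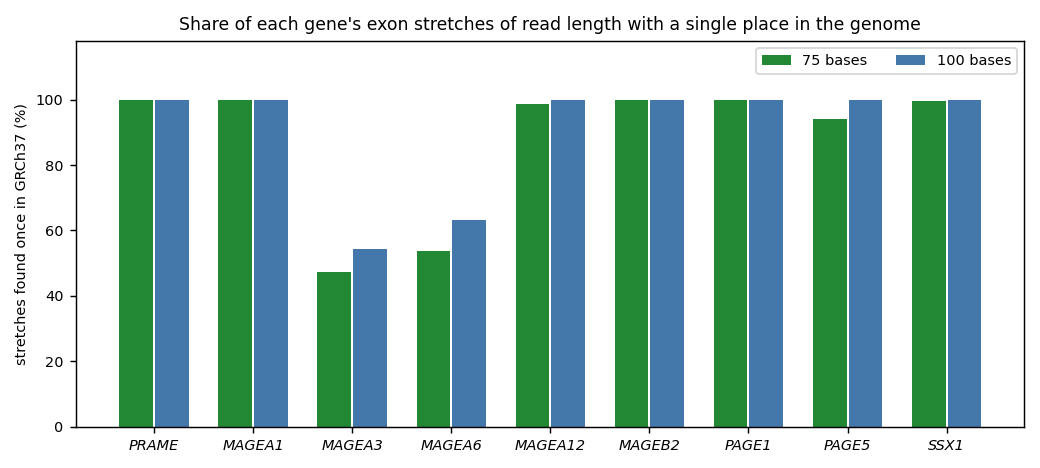
Share of each gene's exon stretches (y axis, percent) that occur once in GRCh37, at 75 bases (green bars) and 100 bases (blue bars), for the 9 genes on the x axis. MAGEA3 and MAGEA6 stand at 47.2% and 53.9% at 75 bases, and the other 7 genes are at 94% or more.

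Promoters, the 250 bases before and 50 after each RefSeq start in GRCh38.p14, were on hand for 8 of the 9 genes. Those of MAGEA3 and MAGEA6 were identical over all 300 bases, so these windows do not tell the pair apart. The longest runs of letters held by a promoter window of each of MAGEA3, MAGEA12 and MAGEB2 were GGATGTGA and GACGCCAC, both chosen after the sequences were read. They are printed below in capitals, because these 3 genes and MAGEA6 are the members that hold them, and in the MAGEA genes they overlap by 2 letters.
MAGEA3 (chrX:152698684-152698731, plus strand): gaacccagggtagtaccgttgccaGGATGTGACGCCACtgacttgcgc
MAGEA6 (chrX:152769752-152769799, minus strand): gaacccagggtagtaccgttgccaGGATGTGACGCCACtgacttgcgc
MAGEA12 (chrX:152733721-152733768, plus strand): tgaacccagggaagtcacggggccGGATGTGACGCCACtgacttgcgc
MAGEB2 (chrX:30215476-30215523, plus strand): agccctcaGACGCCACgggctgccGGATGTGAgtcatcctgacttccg
Searched on both strands, each of the 2 runs of letters was in 4 of 8 members. This follows from the choice, as 3 of these genes defined them and MAGEA6 has the same window as MAGEA3. It is therefore no measure of enrichment. GGATGTGA was in 10 of 64 other cancer-testis genes with a promoter and in 1.39% of all 27305 genes. GACGCCAC was in 8 of the 64 and in 1.24% of all genes. CpG dinucleotides numbered 21 in the window of MAGEB2, 19 in those of MAGEA3 and MAGEA6 and 5 in that of SSX1, against a median of 14 over all windows. No methylation was measured here.

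PRAME was the member with the smallest spread between libraries and the only one found in every library of every run. It had reads in all 242 kept libraries and in all 263 with counts. In the Hoechst run its level ran from 1359 to 7203 CPM with a median of 2807. The benzene run gave 419.6 to 6041 CPM in Green (median 3048) and 1571 to 8718 in Orange (median 3186). Over the imatinib run it was 1537 to 5202 CPM in Green (median 3306) and 1787 to 9175 in Orange (median 3509). The 5 groups overlapped almost entirely, and the single lowest library, at 419.6 CPM, was in Green of the benzene run. From the summed reads of a group, PRAME was at 3102 to 3558 CPM, which placed it 18th to 20th of all genes. Its SD over libraries on the log2(CPM + 1) scale was 0.54 in the Hoechst run, 0.83 and 0.46 in Green and Orange of the benzene run, and 0.42 and 0.48 in those of the imatinib run.

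PRAME varied less than the median gene of its level in the Hoechst and benzene runs, and about as much in the imatinib run. In the Hoechst run its coefficient of variation (SD over mean of CPM) was 0.397 against a median of 0.535 for the 28 genes within 2-fold of its level, of which 21.4% had a lower value. The benzene run gave 0.415 against 0.51 for 48 such genes, of which 29.2% were lower. The imatinib run gave 0.322 against 0.299 for 30 such genes, of which 56.7% were lower. For PAGE5, a member of far lower level, 21.8%, 20.3% and 10.8% of the genes within 2-fold of its own level were lower in the Hoechst, benzene and imatinib runs. On this scale PRAME was thus not more even than PAGE5. PRAME overlaps a gene on the other strand by 19 bases, 0.499% of its exons, and each of its exon stretches of read length occurred once in the genome.

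MAGEA1, an antigen first found in melanoma, had its reads concentrated in the fewest libraries. Its median was 2.29 CPM in the Hoechst run, 0.734 and 0.827 CPM in Green and Orange of the benzene run, and 34.7 and 38.6 CPM in those of the imatinib run. The lowest library was at 0 in each of the 5 groups, and the highest were at 865, 214, 1270.4, 386 and 555 CPM. Reads of MAGEA1 were present in 56 of 82 libraries of the Hoechst run (68.3%, exact 95% binomial interval 57.1 to 78.1%), 41 of 65 of the benzene run (63.1%, 50.2 to 74.7%) and 70 of 95 of the imatinib run (73.7%, 63.6 to 82.2%). These intervals, like all below, cover counting error only. The 9 libraries with the most MAGEA1 reads carried 86.8% of those of the Hoechst run, where the next member, MAGEA12, had 65.2% and PRAME 22.6%. Had every library held the same level, counting error alone would have left 0.0938 of 82 libraries without a read, where 26 had none. Of the genes within 2-fold of MAGEA1, 16.5% of 4267 in the Hoechst run, 11.9% of 3160 in the benzene run and 1.4% of 2776 in the imatinib run were found in a smaller share of libraries. The median share of those genes in the imatinib run was 97.9%.

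MAGEA3 and MAGEA6, both partners of the ubiquitin ligase TRIM28, were found in most libraries. MAGEA3 had reads in 76 of 82 (92.7%), 55 of 65 (84.6%) and 95 of 95 libraries of the Hoechst, benzene and imatinib runs. MAGEA6 had them in 78 of 82 (95.1%), 50 of 65 (76.9%) and 93 of 95 (97.9%). Detection of the pair was similar, and part of their sequence is shared as described above. Libraries of the Hoechst run held 0 to 441 CPM of MAGEA3 (median 31.6) and 0 to 660.3 CPM of MAGEA6 (median 26.1). MAGEA3 was at 0 to 1168 CPM in Green (median 11.7) and 0 to 282 in Orange (median 13.8) of the benzene run, and MAGEA6 at 0 to 513 (median 29.2) and 0 to 589 (median 5.22). In the imatinib run the lower quartile of MAGEA3 was 95.3 CPM, against 6.78 and 1.5 CPM in the Hoechst and benzene runs. Its libraries there ran from 7.64 to 636 CPM in Green (median 203) and from 1.62 to 409 in Orange (median 154). MAGEA6 there was at 0 to 672 CPM in Green (median 182) and 0 to 681 in Orange (median 144).

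MAGEA12 followed a similar course. Its reads were in 71 of 82 libraries of the Hoechst run (86.6%), 44 of 65 of the benzene run (67.7%) and 92 of 95 of the imatinib run (96.8%). The medians were 20.5 CPM in the Hoechst run, 1.4 and 2.66 CPM in Green and Orange of the benzene run, and 161 and 164 CPM in those of the imatinib run. Its highest library, at 1435 CPM, was in the Hoechst run and held 21.2% of that run's MAGEA12 reads. Each of the 5 groups also had libraries at 0.

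MAGEB2, of a separate MAGE cluster on the short arm (chrX:30233680-30238206, plus strand), had reads in 64 of 82 libraries of the Hoechst run (78%), 58 of 65 of the benzene run (89.2%) and all 95 of the imatinib run. Hoechst-run libraries ran from 0 to 288 CPM with a median of 14.1. The benzene run held 0 to 345 CPM in Green (median 13.2) and 0 to 874 CPM in Orange (median 47.3). In the imatinib run the range was 1.65 to 481 CPM in Green (median 115) and 4.76 to 578 in Orange (median 91.9). MAGEB2 and MAGEA3 were the members besides PRAME with a read in every library of a run.

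PAGE1 (chrX:49452050-49460587, minus strand) was found in 65 of 82 (79.3%), 58 of 65 (89.2%) and 87 of 95 (91.6%) libraries of the Hoechst, benzene and imatinib runs. Its medians were 4.6 CPM in the Hoechst run, 44.3 and 42.9 CPM in Green and Orange of the benzene run, and 109.9 and 138 CPM in those of the imatinib run. PAGE5 (chrX:55246779-55250541, plus strand) was found in 55 of 82 (67.1%), 61 of 65 (93.8%) and 86 of 95 (90.5%). Its medians were 8.40 CPM in the Hoechst run, 112 and 109.8 CPM in the benzene run and 94.9 and 85.6 CPM in the imatinib run, in the order Green and Orange. Both genes had libraries at 0 in each of the 5 groups. PAGE5 was the lowest member by summed reads in the Hoechst run, at 31.5 CPM (exact Poisson 95% interval 30.4 to 32.6).

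SSX1 (chrX:48114827-48126879, plus strand) had the highest CPM after PRAME in the summed reads of each of the 5 groups, uncorrected for length, at 257 to 301 CPM in the CellTracker groups and 94.4 CPM in the Hoechst run. It had reads in 62 of 82 libraries of the Hoechst run (75.6%, 64.9 to 84.4%), 64 of 65 of the benzene run (98.5%, 91.7 to 100%) and 91 of 95 of the imatinib run (95.8%, 89.6 to 98.8%). Hoechst-run libraries held 0 to 1170.1 CPM with a median of 36.5. Green and Orange libraries had medians of 218 and 234 CPM in the benzene run and 294 and 253 CPM in the imatinib run. Of 3285 genes within 2-fold of SSX1 in the Hoechst run, 5.69% were found in a smaller share of libraries, and their median share was 93.9%. For the 1293 such genes of the imatinib run these values were 3.02% and 100%. The benzene run differed: of 1214 such genes 36.3% had a smaller share, and their median share of 98.5% was that of SSX1. The coefficient of variation of SSX1 (SD over mean of CPM) was 0.854 there against a median of 1.08 for those genes. In the imatinib run it was 0.669 against 0.67.

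**Figure D2:**
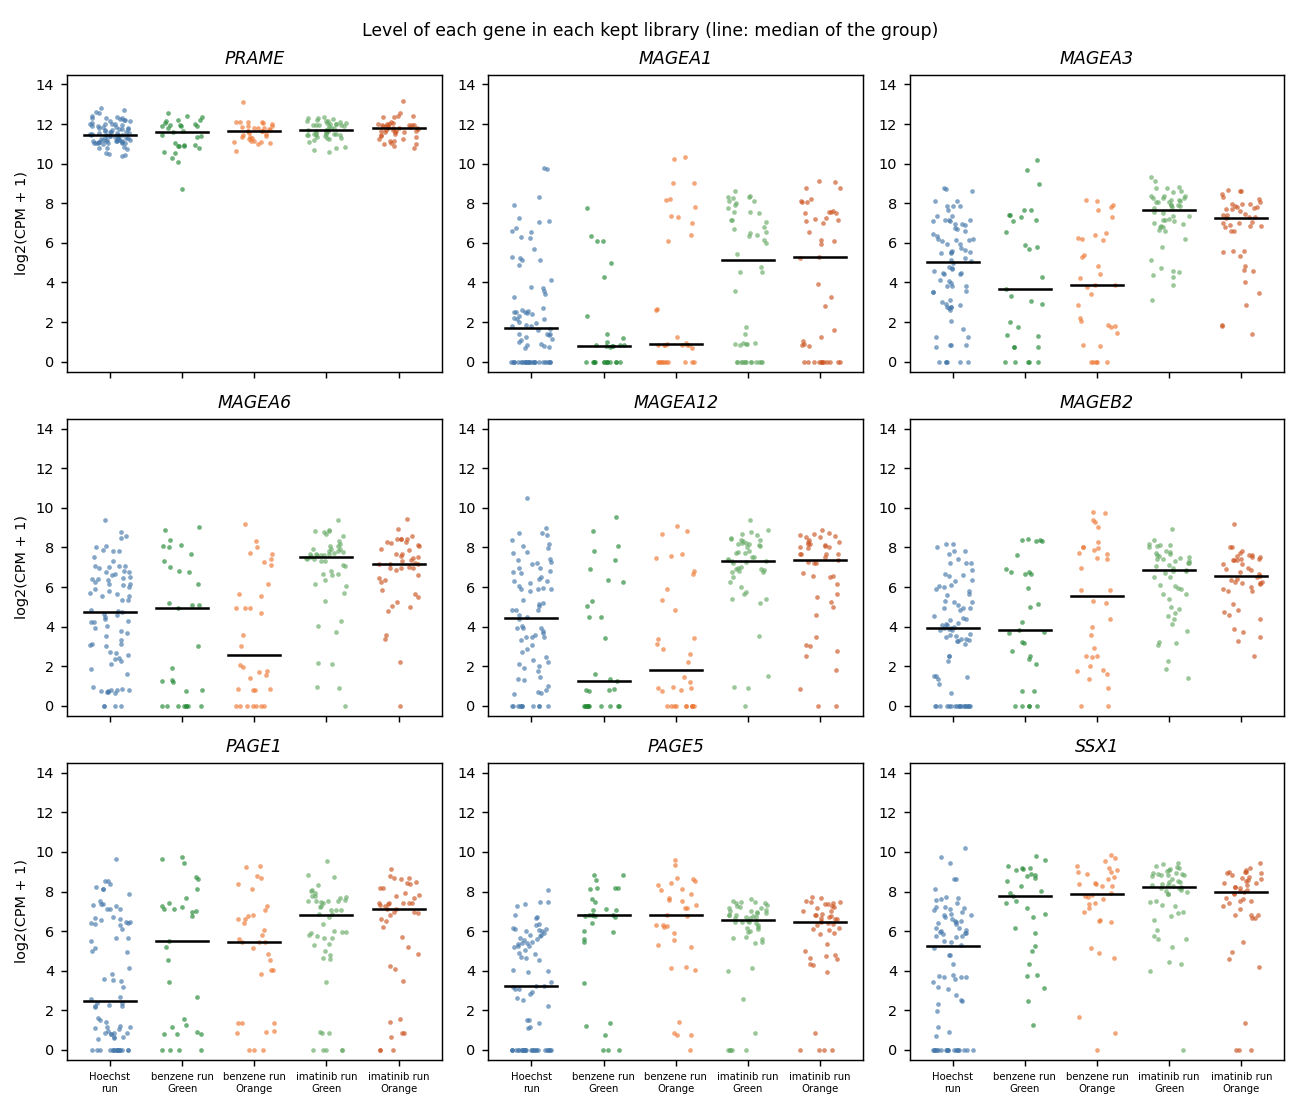
Level of each gene in each of the 242 kept libraries, as log2(CPM + 1) on the y axis, in the 5 groups on the x axis; a point is 1 library and a black line the group's median. PRAME forms a narrow band at a median of 2807 to 3509 CPM, and the other 8 genes spread from 0 or a few CPM to their highest libraries at 199 to 1435 CPM.

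Over all 9 genes, a library of the Hoechst run had reads of a median of 8 (range 4 to 9), of the benzene run 8 (5 to 9) and of the imatinib run 9 (5 to 9). All 9 were found in 22 of 82 (26.8%), 18 of 65 (27.7%) and 61 of 95 (64.2%) libraries of the 3 runs, and no library held PRAME alone. Together the 9 genes took a median of 0.341% of reads in the Hoechst run, 0.421% in the benzene run and 0.486% in the imatinib run. Complexity also differed between the runs, in another order. Libraries had a median of 7410.5 genes detected in the Hoechst run, 5905 in the benzene run and 8022 in the imatinib run. Genes detected are here those with at least 3 reads in the library, whereas any read sufficed for a member. Across libraries the number of members found followed the number of genes detected in the Hoechst run (Spearman's rho 0.51, n = 82) and the benzene run (0.41, n = 65) and not in the imatinib run (-0.02, n = 95). Both counts come from the same library, so these are descriptions, and the part of complexity in the patchiness was not tested.

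A read in at least 50% of the kept libraries was found for all 9 genes in each run, as for 78.3%, 68.1% and 84.3% of all genes at 5 CPM or more in the Hoechst, benzene and imatinib runs. With 10 reads asked for in place of 1, this held for 7 genes in the Hoechst run, 7 in the benzene run and 9 in the imatinib run. MAGEA1 then fell to 30.5%, 27.7% and 57.9% of libraries. After thinning every library to 300000 reads, which left out 2 shallower ones, MAGEA1 was found in 56.2% of libraries of the Hoechst run, 41.5% of the benzene run and 65.3% of the imatinib run, and SSX1 in 68.8%, 95.4% and 95.8%. Without thinning, genes of 5 CPM or more in the summed reads had a median share of libraries with a read of 78%, 67.7% and 86.3% in these runs. The shares to set beside these medians are those at full depth. They were 68.3%, 63.1% and 73.7% for MAGEA1 and 75.6%, 98.5% and 95.8% for SSX1.

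**Figure D3:**
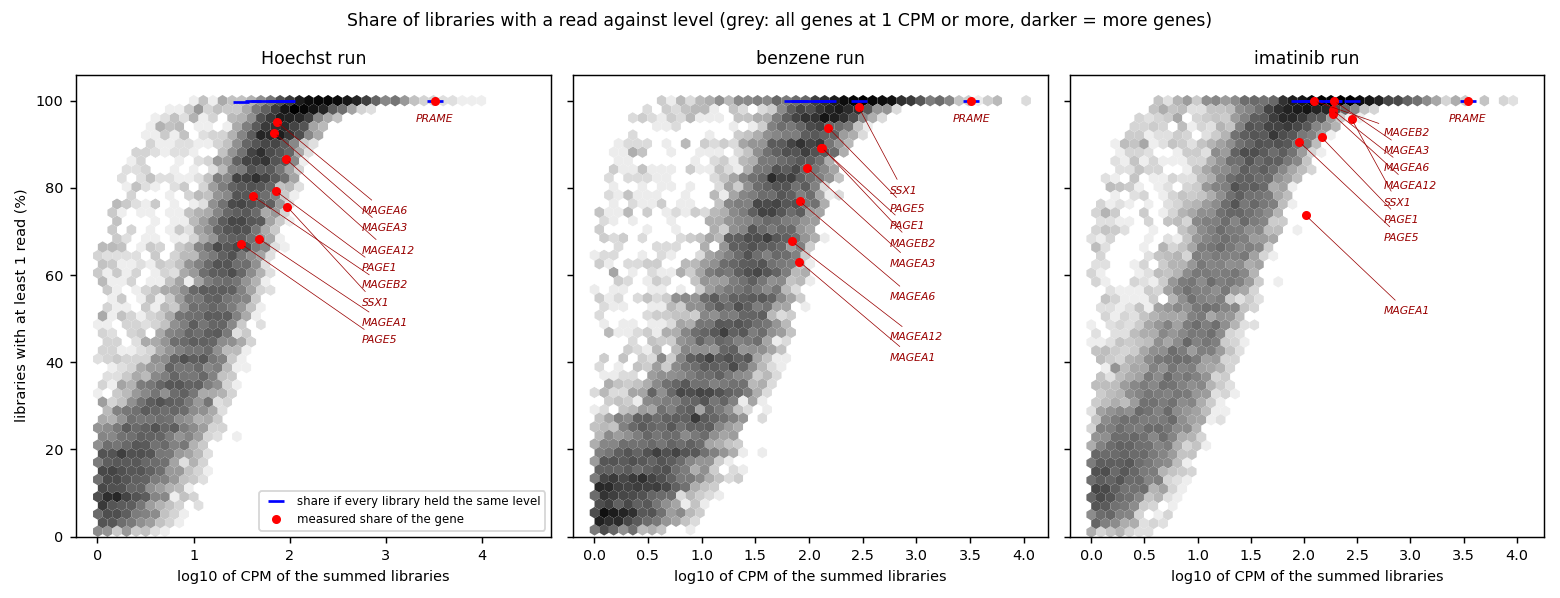
Share of kept libraries with a read (y axis, percent) against the log10 of CPM of the summed libraries (x axis) in the 3 runs, with all genes of 1 CPM or more in grey and the 9 genes as red points. Blue dashes mark the share that counting error alone would give if every library held the same level, which is close to 100% for each gene. MAGEA1 lies furthest under its dash in the benzene and imatinib runs, at 63.1% and 73.7%.

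Levels of different genes were ordered per kb of exon, by the mean of log2(CPM per kb + 1) over libraries. PRAME came first in each run, at 9.60, 9.59 and 9.78 in the Hoechst, benzene and imatinib runs. Its gap to the next gene, SSX1, was 5.55, 2.71 and 2.65, larger than the wider of their SDs over libraries (2.96, 2.33 and 2.09). SSX1 was second and MAGEA1 last in each run. No neighbours among the other 8 genes differed by more than their spread, the widest gap being 1.88 between MAGEB2 and MAGEA1 in the imatinib run, where the wider SD was 3.13.

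The Orange and Green groups of a run answer how the genes stood in drug-treated against untreated cells, with dye as an inseparable part. Ratios were taken between CPM of the summed libraries, as log2 with 1 CPM added, and called past 2-fold with no test, as each side was 1 sum. PRAME barely differed: 3335 against 3102 CPM in the benzene run (log2 ratio of Orange to Green 0.10, 95% counting interval 0.09 to 0.12, taken without the added CPM) and 3558 against 3395 CPM in the imatinib run (0.07, 0.06 to 0.08). These gaps were smaller than the SD of PRAME over libraries in each group.

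In the benzene run 3 of the 9 genes were past 2-fold, beside 32.7% of the 10889 genes at 5 CPM or more. Of the 3, 2 were higher in Orange (17% of all genes) and 1 was lower (15.7%). MAGEA1 was 8.55-fold higher in Orange, at 141 against 16.5 CPM (log2 ratio 3.02, 2.98 to 3.21). Yet its medians were 0.827 and 0.734 CPM, and the difference lay in the upper tail, with 10 of 34 Orange and 1 of 31 Green libraries above 100 CPM. Without the highest library of each stain it was 108 against 9.38 CPM (log2 ratio 3.39). MAGEB2 was 2.13-fold higher in Orange, at 177 against 83.3 CPM (log2 ratio 1.08, 1.03 to 1.15), and stayed at 1.07 without the highest libraries. MAGEA3 was 2.12-fold lower, at 62.5 against 133 CPM (log2 ratio -1.07, -1.15 to -1.02). One Green library held 31.2% of its Green reads, and without the highest library of each stain the log2 ratio was -0.78. For all 3 genes the groups overlapped, both reaching 0, although their highest libraries differed (1270.4 against 214 CPM for MAGEA1, 874 against 345 for MAGEB2 and 282 against 1168 for MAGEA3, Orange against Green). The difference of mean log2 values over libraries (1.75, 0.98 and -0.28 for MAGEA1, MAGEB2 and MAGEA3) was under the SD of either group. The other 6 ratios lay between -0.50 for MAGEA6 and 0.23 for PAGE5. The median of the 9 was 0.10 and of all genes 0.04.

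In the imatinib run 0 of the 9 genes were past 2-fold, beside 10.8% of 10563 genes (5.18% higher and 5.66% lower in Orange). The ratios ran from -0.43 for MAGEA3 (161 against 217 CPM) to 0.33 for MAGEA1 (116 against 92.5 CPM), with 3 genes higher and 6 lower in Orange by the sums. With libraries weighted equally MAGEA6 (0.06) and MAGEB2 (0.11) were also higher. Their median was -0.09, and that of all genes -0.02. Each ratio was smaller than the SD of the gene over libraries of either stain.

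An edgeR quasi-likelihood test on the 4 sums of both CellTracker runs, with run as a term, asked what both Orange groups shared. With Benjamini-Hochberg adjustment and a threshold of 0.05 it called 0 of 13845 genes (a percentage of 0). An unadjusted p below that value was found for 319 genes, a smaller share of the genes than 0.05. DESeq2 called 55 genes. The adjusted p was 1 for each of the 9 genes in edgeR. In DESeq2 the lowest were 0.113 for MAGEA1 (log2 fold change 1.69, SE in edgeR 0.79) and 0.413 for MAGEA3 (-0.78, SE in edgeR 0.28). The drug differed between the 2 runs, so this addresses only a change that both would have made.

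**Figure D4:**
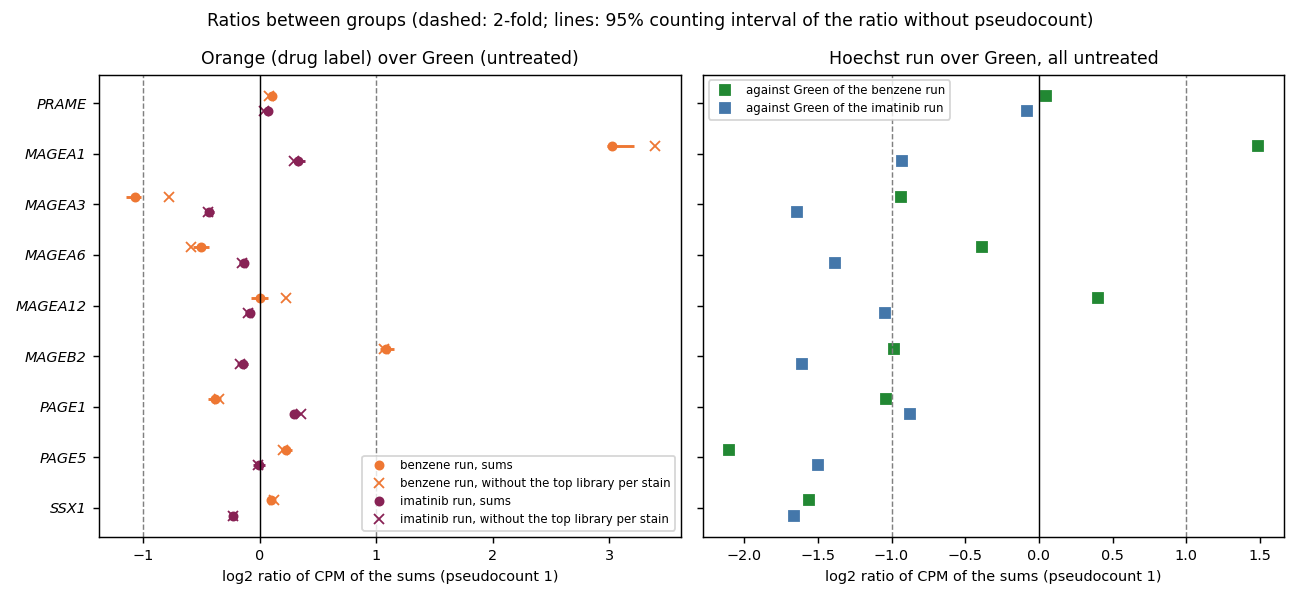
Log2 ratios of CPM of the summed libraries (x axis) for the 9 genes (y axis). Left, Orange over Green in the benzene run (orange) and the imatinib run (purple), with 95% counting intervals as lines and crosses for the ratio without the highest library of each stain; right, the Hoechst run over Green of the benzene run (green) and of the imatinib run (blue). MAGEA1 of the benzene run stands out at 3.02 on the left, and on the right all 9 genes lie below 0 against the imatinib run, PRAME at -0.08 (0.02 without mitochondrial genes).

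Untreated cells could also be set side by side across runs, as the Hoechst run against the Green groups. Passage, dye, read length and sequencer all changed with the run and cannot be told apart. By the paper's account the lot of K562 and the storage times of fixed cells also differed. Cells stained as dead were sequenced only in the Hoechst run. PRAME was at 3211 CPM in the Hoechst run against 3102 and 3395 CPM, ratios of 0.05 and -0.08 on the log2 scale. TMM factors lower all such ratios by a log2 shift of -0.27 and -0.14, which puts PRAME at -0.22 against both. Past 2-fold and the same way against both Green groups were 2 genes, both lower, beside 18.7% of 11910 genes in either direction and 5.43% lower. PAGE5 was at 31.5 CPM against 138 and 90.9 CPM, 4.39-fold and 2.89-fold lower. SSX1 was at 94.4 CPM against 280.4 and 301 CPM, 2.97-fold and 3.19-fold lower. Both had more libraries without a read in the Hoechst run, 27 and 20 of 82, against 3 and 0 of 31 and 5 and 1 of 50 in the Green groups. The mean log2(CPM + 1) over libraries of SSX1 was 4.25 in the Hoechst run (SD 3.07) against 7.02 (SD 2.34) and 7.65 (SD 1.78), with the ranges overlapping.

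Against Green of the imatinib run all 9 genes were lower in the Hoechst run (PRAME not without mitochondrial genes, at 0.02), with a median log2 ratio of -1.38 where the median of all genes was 0.17. Against Green of the benzene run 6 were lower and 3 higher (median -0.93, all genes 0.25). With libraries weighted equally, MAGEA3 and MAGEA6 changed direction in this comparison, from -0.93 to 0.50 and from -0.39 to 0.60. MAGEA1 went opposite ways, at 48 CPM in the Hoechst run against 16.5 CPM (log2 ratio 1.49) and 92.5 CPM (-0.93). The 2 comparisons share the Hoechst sum. The 2 Green groups, both untreated and with the same passage label, themselves differed past 2-fold at 36.4% of 10899 genes. MAGEA1 (log2 ratio of benzene run to imatinib run -2.42) and MAGEA12 (-1.45) were among these. Some markers of other cell types were higher in the Hoechst run too. The 3 T-cell markers summed to 144 CPM there, against 41.1 and 11.7 CPM in the Green groups. CD3D made up 129.9 CPM and CD3G 14.4 CPM of the sum in the Hoechst run. The B-cell and germ-cell lists were also higher there than in both Green groups, and the fibroblast, hepatocyte and keratinocyte lists were not. CD3E was at 0.0634 CPM or less in each of the 5 groups. The part of these differences in the result was not tested.

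Of 78 further cancer-testis genes listed, 75 were matched, and most were low or off. In the Hoechst, benzene and imatinib runs 21, 31 and 26 had no read in any kept library, and 14, 15 and 15 reached 5 CPM. CTCFL (a germ-line paralogue of CTCF) was the highest by the mean of the 3 runs, at 260 CPM in the Hoechst run, 273 in the benzene run and 167 in the imatinib run, and was found in 98.5% or more of the libraries of each. MAGEC2, a partner of TRIM28 like MAGEA3, was at 66.5, 141 and 173 CPM. ATAD2, a chromatin ATPase that dividing cells use widely, was at 179.6, 81.9 and 108 CPM. CSAG1, which neighbours MAGEA12, stood at 72.8, 109 and 79 CPM, while MAGEB1, which neighbours MAGEB2, stood at 30.3, 54.5 and 73.5 CPM.

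A read in 50% or more of the libraries of a run was found for 17 of the 75. The other 12 were SAGE1, MAGEC1, GAGE1, SSX3, OIP5, SSX2, CTAG2, CSAG3, MAGEA2B, CSAG2, GAGE12J and GAGE2A. CTAG2, a relative of NY-ESO-1, was higher in the Hoechst run, at 21.2 CPM in the Hoechst run (69.5% of libraries) than in the benzene run at 3.15 CPM (15.4%) or the imatinib run at 5.12 CPM (36.8%). Members of the GAGE family are near-identical copies, so reads with 1 place in the genome can miss most of their transcripts.

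**Figure D5:**
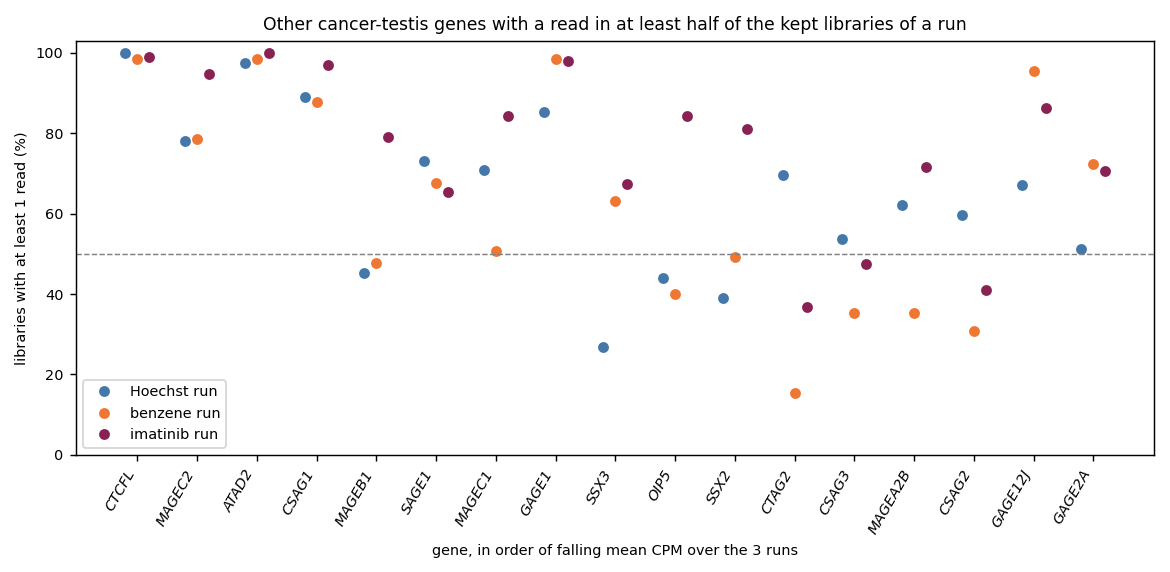
Share of kept libraries with a read (y axis, percent) for the 17 further cancer-testis genes found in at least 50% of the libraries of a run, in order of falling mean CPM (x axis); colours mark the run and the dashed line marks 50%. CTCFL and ATAD2 are near 100% in each run, and CTAG2 runs from 15.4% in the benzene run to 69.5% in the Hoechst run.

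Genes that work with the members were expressed. TRIM28, the ligase bound by MAGEA3 and MAGEA6, had reads in all libraries, at 221, 180.2 and 288 CPM in the Hoechst, benzene and imatinib runs, and TRIM27 at 178, 117 and 153 CPM. EZH2, the Polycomb methyltransferase that PRAME can bring to retinoic acid targets, was at 358, 331 and 209.5 CPM, and ELOB and ELOC, adaptors of the Cullin-2 ligase, were at 53.1 CPM or more in each run. RARA, the retinoic acid receptor, reached only 5.73, 2.25 and 2.52 CPM. The maintenance DNA methyltransferase DNMT1 was at 411, 379 and 512 CPM, with DNMT3B at 142, 111 and 99.6 CPM and the 5-methylcytosine oxidase TET1 at 112, 112 and 75.4 CPM. Of the MAGE genes that are active in most tissues, MAGED2 was at 81.1, 92.4 and 69.2 CPM.

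Around PRAME on chromosome 22, expression was mixed. Of the 11 neighbours that were listed and matched, 3 had no read in any kept library of a run and 5 reached 5 CPM, in each of the 3 runs. TOP3B, a DNA topoisomerase, was at 73.1, 89.3 and 170.4 CPM in the Hoechst, benzene and imatinib runs, and PPM1F, a protein phosphatase, at 148, 79.6 and 81.9 CPM. BCR, whose fusion with ABL1 drives this line, had 42.3, 14.9 and 61.3 CPM. PRAME was higher than each of these 3 genes in each run.

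The members varied largely apart from each other. Over the 36 pairs the median Spearman correlation of log2(CPM + 1) across libraries was 0.12, 0.08 and 0.11 in the Hoechst, benzene and imatinib runs (n = 82, 65 and 95), against 0.04, 0.06 and 0.04 over all gene pairs. Libraries share depth and complexity across genes, so these values are descriptions. By the mean over the 3 runs, MAGEA3 and MAGEA6 were each other's closest gene among 10775, at 0.30, 0.51 and 0.35, though within single runs other genes were closer (ENSG00000235008 to MAGEA3 in the Hoechst run, at 0.55). By the same mean MAGEB2 was closest to its neighbour MAGEB1, at 0.41, 0.35 and 0.51, and PAGE5 to GAGE1, at 0.20, 0.42 and 0.29. The lead of GAGE1 was narrow, with a mean of 0.302 against 0.295 for RPL23. For MAGEA3 the mean was 0.388 with MAGEA6 and 0.381 with ENSG00000235008, and for MAGEA6 it was 0.388 with MAGEA3 and 0.385 with STRAP. For MAGEB2 it was 0.422 with MAGEB1 and 0.369 with RAB9A. SSX1 stood apart with SSX8P, a pseudogene of the same family, at 0.87, 0.88 and 0.84, and SSX7 followed at 0.72, 0.50 and 0.42. SSX1 and SSX7 share 2 identical 75-base stretches, whereas none was shared by SSX1 and SSX8P. Near matches and exon junctions were not looked up, so wrongly assigned reads were not tested. For the other members the highest mean over the 3 runs was 0.23 for PRAME (CYTH1), 0.32 for MAGEA1 (GTPBP1), 0.38 for MAGEA12 (TUBA1B) and 0.29 for PAGE1 (NDUFB1). Each closest gene was picked as the highest among the 10775. How high the top value of so many unrelated genes would be was not tested.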

How the data were processed

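Per the labels and the study's methods, reads from C1 SMARTer and Nextera XT libraries were aligned to GRCh37 with ERCC sequences by HISAT2, duplicates were marked with Picard 1.92, and uniquely mapped reads were counted on Ensembl release 75 genes by featureCounts (Subread 1.5.0). Whether marked duplicates were left out, and whether strand was used, is not given in the sources used here. The authors deposited raw counts and CPM, the latter with ERCC reads in the total. Here CPM were computed from the deposited counts over gene reads alone. The deposited CPM table served only for a detection threshold of 1 CPM. Of the table's columns, 4 matched no sample's title and were not used, and 4 samples had no column. No 2 libraries held identical counts.

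The 9 members and all gene lists were chosen with earlier results of these data known. Named were the 9 members, the 3 genes most correlated with each, the 3 highest of each list, and listed cancer-testis genes with a read in at least 50% of a run's libraries, of which those that bear on a result were printed and 1 listed gene is not reported here. Ratios used sums per group, 1 CPM as pseudocount, and genes of at least 5 CPM in either sum. Intervals were exact Poisson or binomial at 95%. Sums were tested with edgeR 4.0.16 (TMM, quasi-likelihood, Benjamini-Hochberg over genes with 1 CPM in 2 sums) and DESeq2 1.42.0 in R 4.3.3. On simulated sums with 200 genes changed 8-fold, edgeR recovered 188 with 28 false calls among 13059 genes. With 4 sums and run as a term, p-values rest on how far the Orange to Green difference varied between the 2 runs. The drug differed between these runs too. Other steps used Python 3.11.15. Alternatives covered scaling, pseudocount, filters, libraries and detection thresholds. Sequences came from GRCh37 and, for promoters, RefSeq.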

Additional observations from a re-analysis of the deposited data

Results flagged for a closer look

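MAGEB2 was the member whose Orange to Green ratio was past 2-fold in one CellTracker run and had the opposite sign in the other. Its log2 ratio was 1.08 in the benzene run (177 against 83.3 CPM) and -0.15 in the imatinib run (116 against 129 CPM). The difference between the runs was not tested, since each group was 1 sum. With libraries weighted equally the values were 0.98 and 0.11, under 2-fold and of the same sign. Libraries overlapped in both runs, with medians of 47.3 and 13.2 CPM in Orange and Green of the benzene run and 91.9 and 115 CPM in those of the imatinib run.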

How the results depend on the processing

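The gene counts, member levels, member ratios and counts of members detected were recomputed under alternatives that changed 1 choice at a time, apart from leaving out a sum, and no ratio past 2-fold changed direction. Leaving out the library with the most reads of a gene in each stain was chosen after seeing the data. The number of genes past 2-fold moved most. In the benzene run it was 3561, then 1505 with a pseudocount of 10 CPM, 5483 with a floor of 1 CPM and 817 with equal weight of libraries (64.5% of them higher in Orange, against 52%). In the imatinib run it was 1145, then 126, 2420 and 262 under the same settings (36.6% higher under equal weight, against 47.8%). For the Hoechst run against both Green groups it was 2222, then 795, 3372 and 1253, and TMM factors lowered the share of higher genes from 70.9% to 55.9%. DESeq2 called 55 genes (32 higher, 23 lower in Orange) where edgeR called 0, and leaving out 1 sum at a time, which needed the run term dropped and assumes that the lone sum of a stain varies like the others, gave 0 to 0. No paired analysis was possible because the sample numbers come from the order of chip sites or accessions and pair nothing.

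Of the 13 member ratios past 2-fold, MAGEA3 in the benzene run was the least firm: it fell under 2-fold with a pseudocount of 10 CPM, without the highest libraries and with equal weight of libraries (-0.28). MAGEB2 in that run was at 0.98 with equal weight. MAGEA1 of the Hoechst run against Green of the benzene run was then at 0.90. In the Hoechst run, MAGEA12 against Green of the imatinib run and PAGE1 against Green of the benzene run went under 2-fold with a pseudocount of 10 CPM or without mitochondrial genes (-0.95 and -0.94 in the latter case), and MAGEA12 also with ERCC sequences in the total. MAGEA1 in the benzene run stayed past 2-fold in each setting. So did PAGE5 and SSX1 of the Hoechst run against both Green groups, and MAGEA3, MAGEA6 and MAGEB2 against Green of the imatinib run. Ratios of the Hoechst run were not recomputed without the highest libraries. The median over libraries put MAGEA1 at 2.29 CPM in the Hoechst run and 0.779 CPM in the benzene run, far under its sums of 48 and 81.3 CPM. Depth limits the low members: 1 read is under 1 CPM at the median depth of 1283275 reads, and the intervals leave out the spread between cultures.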
